A study of Mus musculus with 12 samples.

Results

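The MiT/TFE family was examined as the DNA of its 4 genes, Mitf, Tfeb, Tfe3 and Tfec, in an ATAC-seq count table of 12 libraries from macrophages of mouse brain tumours, a model of glioblastoma. ATAC-seq counts the cuts that the Tn5 transposase makes in open chromatin. The members of each gene were the regions of the table that overlap its span or the 5 kb on either side, in the mm10 build. Of 117835 regions, 66 met this rule, 34 at Mitf, 21 at Tfeb, 6 at Tfec and 5 at Tfe3. The gene spans, in RefSeq coordinates, are chr6:97807002-98021360 for Mitf (gene ID 17342), chr17:47737037-47792416 for Tfeb (21425) and chrX:7762530-7775202 for Tfe3 (209446), all on the plus strand, and chr6:16830927-16898464 on the minus strand for Tfec (21426).

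All mice had the genotype Ink4a/ArfKO with tumours driven by PDGFB in Nestin-positive progenitor cells, so every group shares the deletion and the tumour, and no normal brain was among the libraries. Cells were sorted by flow cytometry into lipid-laden microglia (LL-MG), lipid-laden monocyte-derived macrophages (LL-MDM), microglia without lipid load (MG) and monocyte-derived macrophages without lipid load (MDM), with 3 libraries each. Microglia are the resident macrophages of the brain and MDM enter the tumour from the blood. No age, sex or sorting marker was given. Groups follow the names of the table's columns. The sample titles name another group for 8 of the 12 libraries and the same group for 4. Titles also number 3 mice, but since they conflict with the columns on the group of most libraries, no library was tied to a mouse, and each p-value weighs a difference against variation among libraries that could be technical.

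The column names were set against marker loci before the family was described. Sall1, a microglial transcription factor, had 63.4, 85.0 and 64.6 CPM (counts scaled to library size) in LL-MG libraries 1, 2 and 3, 11.5, 9.42 and 5.94 CPM in LL-MDM, 71.4, 37.7 and 50.2 CPM in MG and 0.830, 1.02 and 0.471 CPM in MDM. Every microglial library by column name was therefore above every MDM and LL-MDM library, and every LL-MDM library was above every MDM library. The part of microglial signal in the differences between LL-MDM and MDM was not tested. With groups set by title, no locus passed the edgeR test between MG and MDM, where 61 had an unadjusted p under 0.05. MG libraries 2 and 3 stood apart from MG library 1. Over the 12 microglial identity genes the summed level was 732 to 800 CPM in LL-MG, against 737, 454 and 585 CPM in MG libraries 1, 2 and 3. It was 476 to 499 CPM in LL-MDM, against 389 to 416 CPM in MDM. Over the 7 of 9 mast cell and basophil genes with a region (Fcer1a and Mcpt4 had none) it was 54.8 to 69.4 CPM in LL-MG, 54.0 to 63.2 CPM in LL-MDM, 71.7, 213 and 140 CPM in MG libraries 1, 2 and 3, and 107 to 119 CPM in MDM. Library totals ran between 1162969 counts (LL-MDM library 1) and 18938222 counts (MDM library 2). In such sorted bulk samples, fewer open cells and less opening per cell cannot be told apart.

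MITF, TFEB, TFE3 and TFEC are basic helix-loop-helix leucine zipper proteins that bind as dimers to E-boxes. In fed cells the Rag GTPases, with folliculin and its partners, bring TFEB, TFE3 and MITF to mTORC1 at the lysosome, which phosphorylates them and holds them in the cytoplasm. On starvation or lysosomal damage the phosphatase calcineurin helps release them, and they switch on lysosome and autophagy genes through CLEAR elements, whose core is CACGTG. MITF is also the master factor of melanocytes and acts in osteoclasts and mast cells, and TFEC is expressed mainly in macrophages. Accessibility reads the openness of the 4 genes' DNA, not the amount or the location of the proteins.

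Mitf is transcribed from several starts that give proteins with different amino ends, and the results turn on how its starts and those of Tfe3 differ. The 250 bases before each start were therefore taken from RefSeq (GRCm38.p6, the assembly of mm10), which lists 3 starts for Mitf, 3 for Tfeb, 2 for Tfe3 and 1 for Tfec. These windows are chr6:97806808-97807057 for Mitf start 1, chr6:97929567-97929816 for start 2 and chr6:97991533-97991782 for start 3, all on the plus strand. They are chrX:7762411-7762660 for Tfe3 start 1 and chrX:7763693-7763942 for start 2, on the plus strand, and chr6:16898442-16898691 for Tfec, on the minus strand. The sequences run 5′ to 3′ towards the start, with capitals for the GC box GGGCGG, the cAMP response element TGACGTCA and the ETS and PU.1 core AGGAAGT on either strand. The GGGCGG matches at Mitf start 1 overlap each other.
Mitf start 1: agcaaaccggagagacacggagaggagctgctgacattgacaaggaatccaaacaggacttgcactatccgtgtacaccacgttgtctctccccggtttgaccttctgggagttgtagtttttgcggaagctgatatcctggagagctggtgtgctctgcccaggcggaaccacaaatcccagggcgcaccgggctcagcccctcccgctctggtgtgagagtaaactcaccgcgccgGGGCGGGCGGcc
Mitf start 2: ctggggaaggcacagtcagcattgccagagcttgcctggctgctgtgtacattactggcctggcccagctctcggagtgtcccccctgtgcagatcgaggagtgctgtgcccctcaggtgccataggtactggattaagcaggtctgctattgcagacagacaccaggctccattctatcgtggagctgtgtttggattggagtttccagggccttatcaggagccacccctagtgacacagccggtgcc
Mitf start 3: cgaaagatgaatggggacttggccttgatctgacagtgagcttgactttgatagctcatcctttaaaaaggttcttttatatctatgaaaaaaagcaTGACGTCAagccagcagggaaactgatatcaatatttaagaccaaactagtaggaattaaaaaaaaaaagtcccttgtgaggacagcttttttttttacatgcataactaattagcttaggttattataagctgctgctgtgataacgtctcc
Tfe3 start 1: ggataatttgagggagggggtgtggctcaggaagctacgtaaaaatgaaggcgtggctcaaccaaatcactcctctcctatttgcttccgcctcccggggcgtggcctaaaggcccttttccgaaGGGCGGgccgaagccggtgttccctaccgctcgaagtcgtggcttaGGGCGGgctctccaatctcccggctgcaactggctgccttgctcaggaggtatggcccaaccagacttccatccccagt
Tfe3 start 2: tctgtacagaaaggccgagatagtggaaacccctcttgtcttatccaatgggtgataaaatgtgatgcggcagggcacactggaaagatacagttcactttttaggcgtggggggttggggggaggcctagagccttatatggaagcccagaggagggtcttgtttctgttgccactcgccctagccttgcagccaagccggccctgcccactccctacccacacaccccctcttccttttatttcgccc
Tfec start 1: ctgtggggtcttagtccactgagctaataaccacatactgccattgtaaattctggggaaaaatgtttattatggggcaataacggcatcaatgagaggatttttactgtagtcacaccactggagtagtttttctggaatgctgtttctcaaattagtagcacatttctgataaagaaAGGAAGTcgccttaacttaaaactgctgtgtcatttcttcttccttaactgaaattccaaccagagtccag

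The windows differed in base composition. G and C made up 59.6% of the window of Mitf start 1, 58.0% at start 2 and 36.0% at start 3. They made up 59.6% at Tfe3 start 1, 54.8% at Tfe3 start 2 and 39.2% at Tfec. GGGCGG stood in the windows of Mitf start 1, all 3 Tfeb starts and Tfe3 start 1, and in 32.7% of all 32851 RefSeq start windows of 250 bases. It was absent from those of Mitf starts 2 and 3, Tfe3 start 2 and Tfec. TGACGTCA was found at Mitf start 3, 153 bp before the start, and in 1.55% of all windows. The melanocyte promoter of Mitf is known for a cAMP response element, though the table names no isoform for these starts. AGGAAGT was found at Tfec, 71 bp before the start, and in 7.69% of all windows. The CLEAR core CACGTG, the M-box core CATGTG and the AP-1 motif TGANTCA were in none of the 9 windows of the family, against 6.02%, 12.3% and 6.75% of all windows. These are matches of letters and show no binding.

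Summed over its regions, Tfeb was the most open of the 4 genes per kb of region, except in LL-MDM, where Tfe3 was slightly above it, and Tfec was the least open. Per kb, Tfeb had 65.4 CPM in LL-MG, 51.8 CPM in LL-MDM, 54.9 CPM in MG and 45.0 CPM in MDM. Tfe3 followed with 58.1, 52.7, 51.2 and 43.5 CPM per kb in the same order of groups, and Mitf with 29.6, 27.6, 21.5 and 26.0 CPM per kb. Tfec had 18.6 CPM per kb in LL-MG, 22.7 in LL-MDM, 14.1 in MG and 15.1 in MDM. The summed level of the 4 loci was highest in LL-MG, at 755 ± 15.9 CPM, against 655 ± 17.5 CPM in LL-MDM, 608 ± 84.6 CPM in MG and 575 ± 15.1 CPM in MDM (SD, n = 3 each). LL-MG, LL-MDM and MDM did not overlap in this sum, while the MG libraries ran between 534 and 700 CPM and overlapped LL-MDM and MDM.

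Tfeb, the best known inducer of lysosome genes, had the highest locus level in LL-MG. Its locus had 389, 386 and 380 CPM in LL-MG libraries 1, 2 and 3, 311, 323 and 280 CPM in LL-MDM, 365, 296 and 308 CPM in MG and 266, 257 and 272 CPM in MDM. All LL-MG libraries lay above all others, all MDM libraries lay below all others, and LL-MDM and MG overlapped. Tfeb was higher in MG than in MDM by 0.28 ± 0.08 on the log2 scale (SE, edgeR quasi-likelihood test, adjusted p = 0.00968), and by 0.46 when MG libraries 2 and 3 were left out. It was higher in LL-MG than in LL-MDM by 0.34 ± 0.09 (edgeR adjusted p = 0.00785), a call lost without LL-MDM library 3 (0.27, edgeR adjusted p = 0.0607). The difference between LL-MDM and MDM was 0.20 ± 0.08 (edgeR adjusted p = 0.0872) and passed without MG library 1 or 2 (0.20 to 0.21). Regions shared with the neighbouring gene Pgc hold 23.9% of the Tfeb counts.

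Mitf was lowest in MG. Its locus had 244, 247 and 240 CPM in LL-MG, 243, 217 and 224 CPM in LL-MDM, 207, 142 and 182 CPM in MG and 216, 212 and 216 CPM in MDM. All MG libraries lay below all others, and LL-MG and LL-MDM overlapped. Mitf was higher in LL-MG than in MG by 0.48 ± 0.10 (edgeR adjusted p = 0.00639) and lower in MG than in MDM by a log2 change of -0.29 ± 0.10 (edgeR adjusted p = 0.0203). With MG libraries 2 and 3 left out the differences were 0.23 (edgeR adjusted p = 0.564) and -0.05 (edgeR adjusted p = 0.770), with the remaining MG library assumed to vary like the other groups. The lower level in MG against MDM was also lost without MG library 2 (-0.15, edgeR adjusted p = 0.174) and without MDM library 1 or 3.

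Tfec, the macrophage member, was highest in LL-MDM. Its locus had 28.5, 26.0 and 26.3 CPM in LL-MG, 32.8, 30.9 and 35.0 CPM in LL-MDM, 22.4, 14.9 and 24.2 CPM in MG and 22.4, 20.2 and 22.9 CPM in MDM. All LL-MDM libraries lay above all others, all LL-MG libraries lay above those of MG and MDM, and MG overlapped MDM. Tfec was higher in LL-MDM than in MDM by 0.59 ± 0.15 (edgeR adjusted p = 0.00745), and 93.2% of all loci tested had a lower difference. Without LL-MDM library 3 the difference was 0.54 and missed the threshold (edgeR adjusted p = 0.0514). The difference between LL-MG and MG was 0.43 ± 0.17 (edgeR adjusted p = 0.0835) and passed without MG library 1 (0.49, edgeR adjusted p = 0.0289).

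Tfe3, a close relative of Tfeb on the X chromosome, had 99.2, 107 and 90.2 CPM in LL-MG, 82.0, 90.5 and 96.9 CPM in LL-MDM, 106, 81.6 and 74.4 CPM in MG and 68.9, 72.8 and 80.6 CPM in MDM. Every group overlapped another, except that LL-MG and LL-MDM lay above MDM throughout. Tfe3 was higher in LL-MDM than in MDM by 0.30 ± 0.11 (edgeR adjusted p = 0.0473). This call was lost without any 1 of LL-MG library 1, LL-MDM libraries 2 and 3 and MDM libraries 1 and 2, with differences of 0.25 to 0.31. The difference between MG and MDM was 0.22 ± 0.10 (edgeR adjusted p = 0.0960) and passed without MG library 2, without MG library 3 and without both (0.52, edgeR adjusted p = 0.000200). LL-MG against MG gave 0.20 ± 0.11 (edgeR adjusted p = 0.227), which passed without MG library 1 (0.31) and was -0.10 without MG libraries 2 and 3.

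Read over the family, 1 of 4 loci was higher and 1 lower in MG than in MDM, where 19.8% and 21.2% of all 15552 loci tested were called. In LL-MG against LL-MDM 1 locus was higher and none lower, beside 12.0% and 8.31% of all loci. In LL-MDM against MDM 2 were higher and none lower, beside 11.7% and 12.2%. In LL-MG against MG 2 were higher (Mitf, and Tfeb at 0.26 ± 0.09, edgeR adjusted p = 0.0393) and none lower, beside 10.3% and 7.98% (1606 higher and 1241 lower, or 1299 and 1620 when scaled by total counts). The Tfeb call was lost in 8 of 12 fits that left out 1 library each, at 0.20 to 0.26. Leaving out MG libraries 2 and 3, no family locus was called in LL-MG against MG, and 16 loci were called in the whole table, with MG then resting on 1 library. The change with lipid load did not differ detectably between the lineages for any of the 4 loci by edgeR (interaction adjusted p of 0.0820 for Mitf and 0.736 to 0.826 for the others), beside 5.94% of loci higher and 2.78% lower (924 and 432, or 775 and 588 when scaled by total counts). For Mitf the unadjusted p was 0.0101, and the interaction of 0.40 passed without MG library 1 (0.51, edgeR adjusted p = 0.00110).

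**Figure D1:**
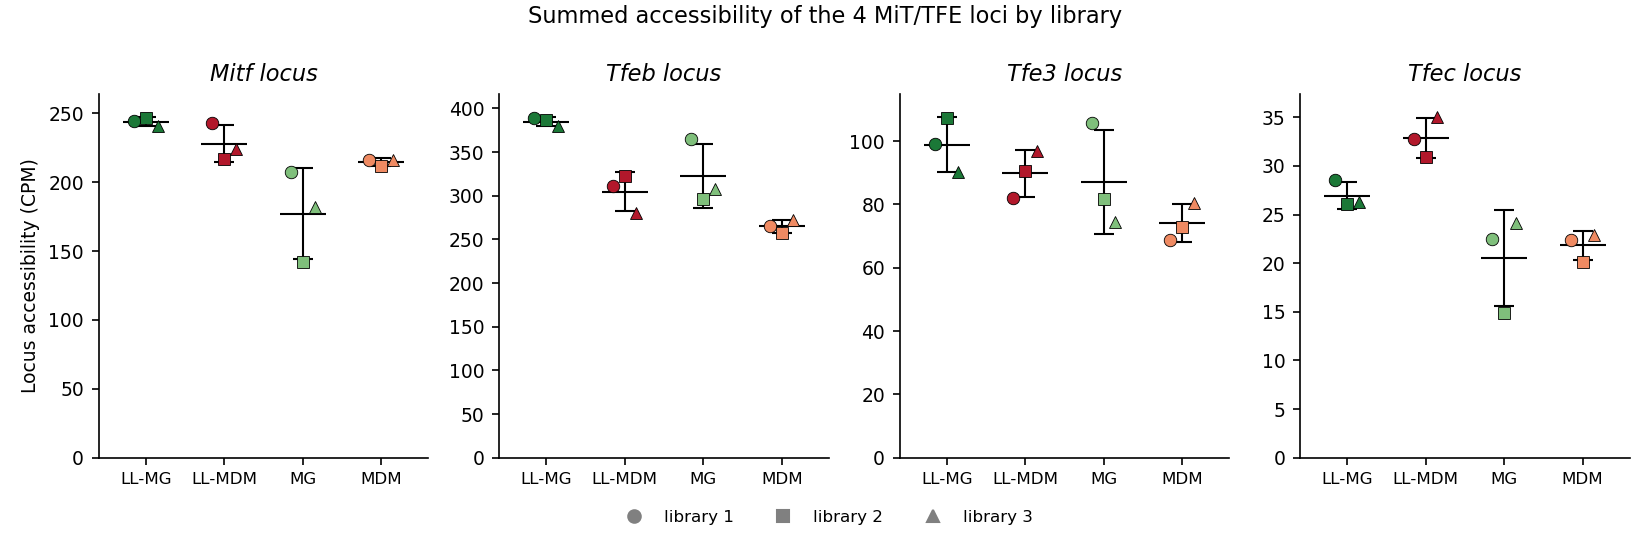
Summed accessibility of the 4 loci in CPM (vertical axis) in each library (points, shaped by library number) of LL-MG, LL-MDM, MG and MDM, with bars for the mean and SD of 3 libraries. Tfeb is highest in LL-MG (380 to 389 CPM), Tfec in LL-MDM (30.9 to 35.0 CPM), and the low Mitf and Tfec points of MG are library 2 (142 and 14.9 CPM).

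Single regions gave a sharper picture than the sums. Of the 66 regions, 60 lay inside the gene spans, 25 were named by the authors' region identifiers as called in all 4 groups and 25 in MDM alone, whose libraries were the deepest on average. These naming counts are given without the share of all 117835 regions so named, and are not read as a result about the family. The filter on low counts kept 47, and removed 14 at Mitf, 3 at Tfec, 2 at Tfeb and none at Tfe3. Exons and introns were not annotated in the tables used here. In MG against MDM 13 of the 47 were higher and 6 lower, beside 26.8% and 24.9% of all 77737 regions tested. In LL-MDM against MDM 13 were higher and 2 lower, beside 15.4% and 14.1%. In LL-MG against LL-MDM 4 were higher and 2 lower, beside 10.3% and 11.2%. In LL-MG against MG 3 were higher and 2 lower, beside 4.21% and 8.01% (3276 higher and 6226 lower, or 4835 and 5243 when scaled by total counts), and none was called without MG libraries 2 and 3. The interaction was called for 1 region upward and 2 downward, beside 4.56% and 6.33%. Leaving out MG libraries 2 and 3 left 1 MG library and changed the calls over all regions too. Region counts of that fit are therefore not set beside these shares. With 1 library left out, the counts ran between 9 and 14 higher in MG against MDM, and between 4 and 15 higher in LL-MDM against MDM, with the 4 without LL-MDM library 2 and 6 without MDM library 1 or 2. In LL-MG against LL-MDM they ran between 2 (without LL-MDM library 3) and 10 (without MG library 2), and in LL-MG against MG without MG library 1, 12 were higher and 5 lower.

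**Figure D2:**
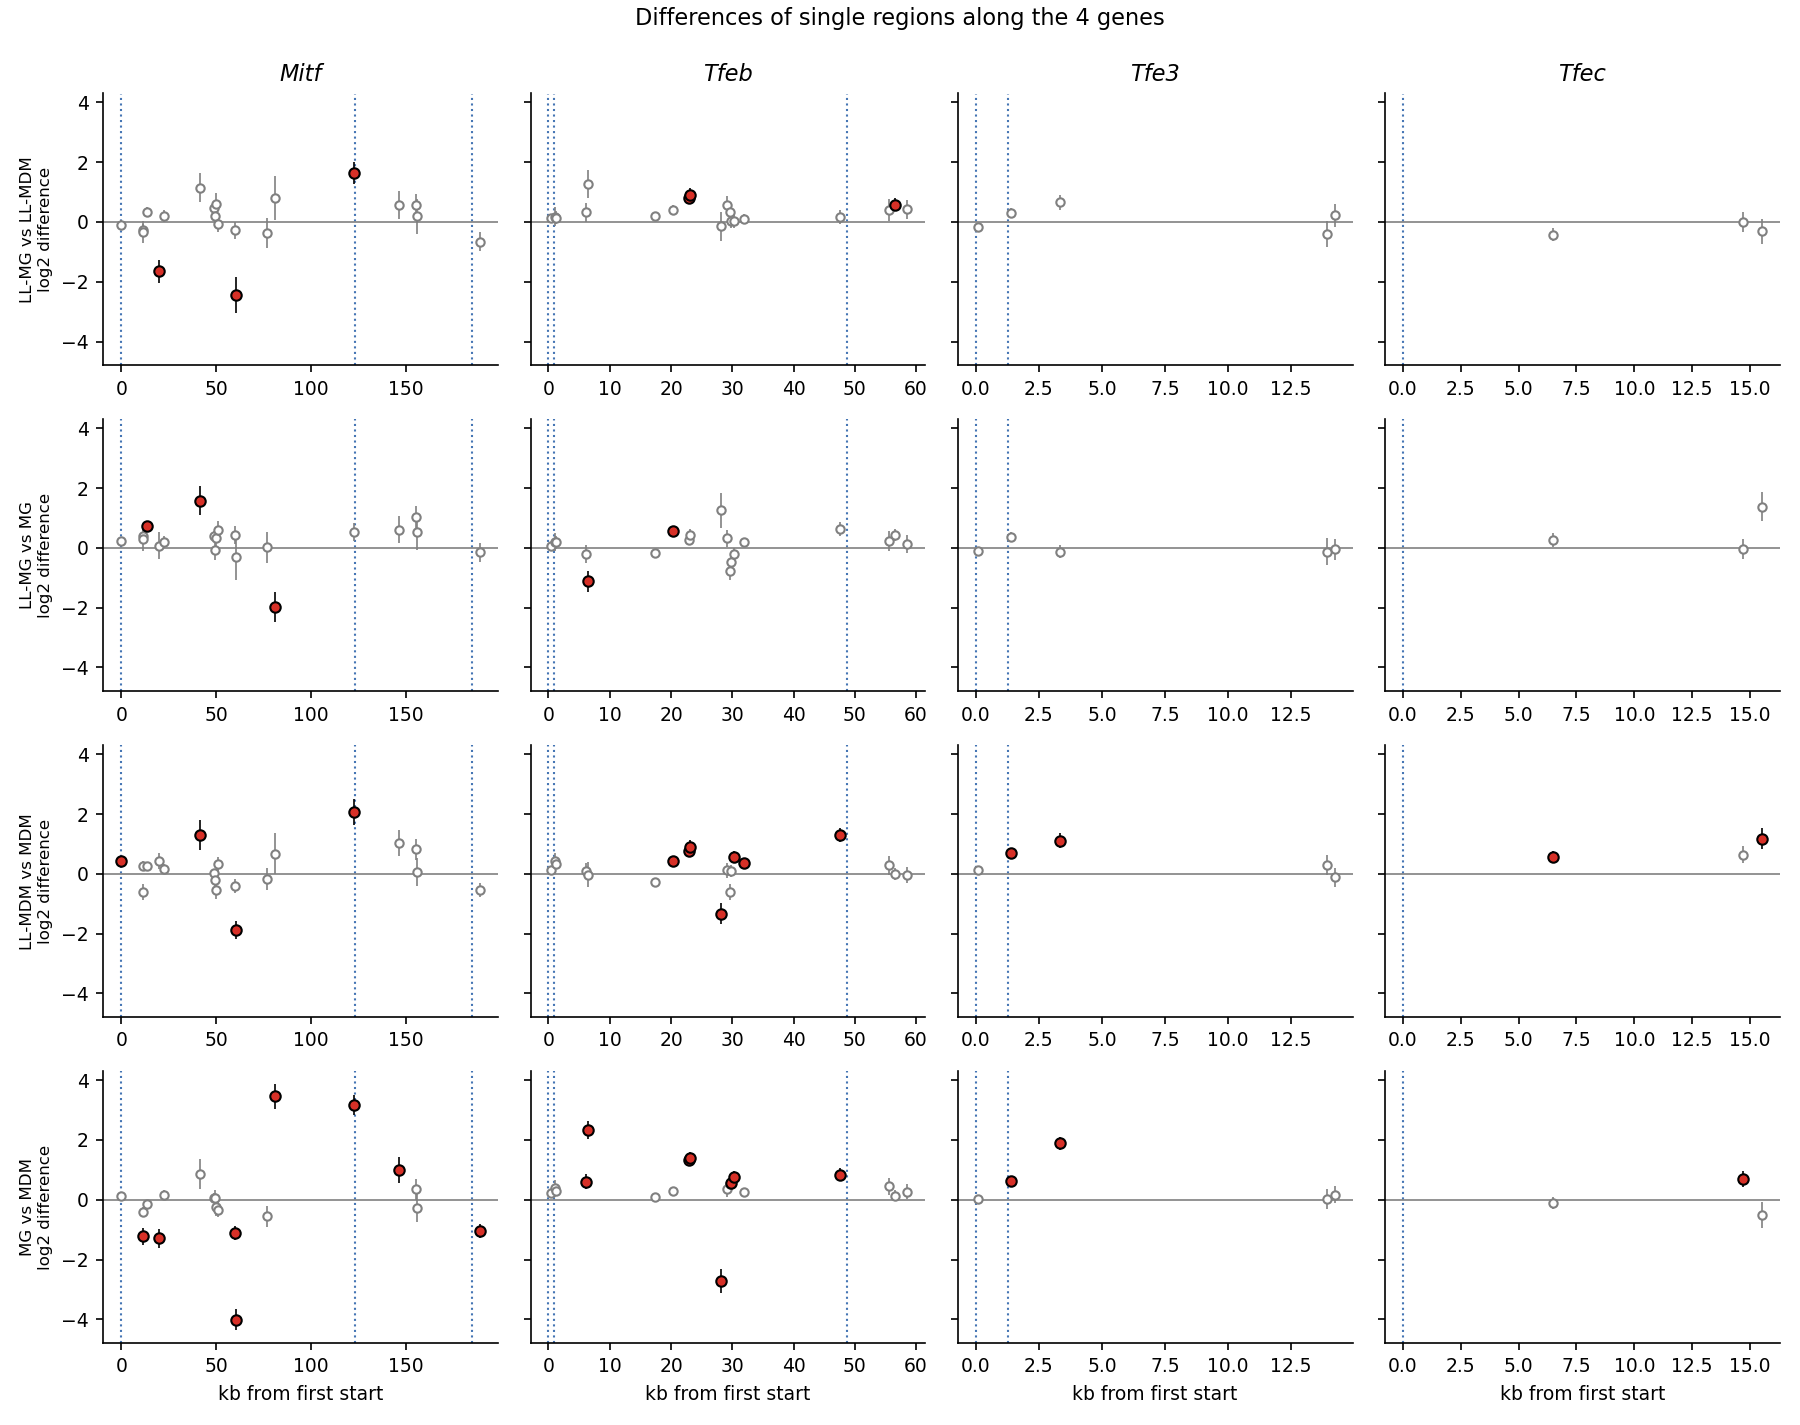
Log2 differences of the 47 tested regions (points, with SE) against the distance of their centres from the first start of each gene in kb, with a row for each comparison and a column for each gene. Filled points passed the edgeR test (adjusted p under 0.05) and dotted lines mark the starts. At Mitf the largest differences between MG and MDM lie in both directions, from -4.01 at 60.3 kb to 3.46 at 81.0 kb, where the region at 81.0 kb passed the filter on low counts only with MG libraries 2 and 3 in the fit.

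At Mitf the region at start 1 was open in every library, and the region at start 2 was open in microglia and nearly closed in MDM. The start 1 region (chr6:97806810-97807410) had 29.9, 36.2 and 37.0 CPM in LL-MG, 47.0, 36.0 and 31.8 CPM in LL-MDM, 32.6, 28.8 and 27.8 CPM in MG and 26.1, 28.0 and 27.7 CPM in MDM. LL-MDM lay above MDM, and all other pairs except LL-MG and MDM overlapped. The difference between LL-MDM and MDM was 0.43 ± 0.14 (edgeR adjusted p = 0.0200) and was lost without LL-MDM library 1 or 2 or MDM library 1 or 2 (0.32 to 0.45). No other comparison passed, and MG against MDM gave 0.12 ± 0.14 (edgeR adjusted p = 0.510).

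The start 2 region (chr6:97929415-97929626), whose centre lies 296 bp before start 2, had 9.05, 8.93 and 5.81 CPM in LL-MG, 2.66, 2.50 and 2.40 CPM in LL-MDM, 5.56, 5.49 and 5.12 CPM in MG and 0.803, 0.489 and 0.342 CPM in MDM. These rest on 20, 19 and 16 counts in LL-MG, 3, 18 and 7 in LL-MDM, 15, 32 and 21 in MG and 11, 9 and 2 in MDM. The 4 groups did not overlap, with LL-MG above MG, MG above LL-MDM and LL-MDM above MDM. The start 2 region passed the filter on low counts only through the LL-MG and MG libraries, where it was high. The region was higher in MG than in MDM by 3.17 ± 0.35 (edgeR adjusted p = 3.06e-09), a fold of 9.01. It was higher in LL-MG than in LL-MDM by 1.64 ± 0.35 (edgeR adjusted p = 0.000865) and in LL-MDM than in MDM by 2.07 ± 0.42 (edgeR adjusted p = 0.000320). These calls held with any 1 library left out and without MG libraries 2 and 3, and LL-MG against MG did not pass (0.53 ± 0.30, edgeR adjusted p = 0.247). Sall1 had the same direction in LL-MDM against MDM. The first 60 bases of the start 2 sequence printed above lie in this region.

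Mitf start 3, where TGACGTCA stood, had no region over its window. The nearest one (chr6:97995613-97996215), with its centre 4131 bp after the start, had 3.17, 6.11 and 7.62 CPM in LL-MG, 6.20, 7.65 and 12.7 CPM in LL-MDM, 7.78, 6.52 and 5.12 CPM in MG and 12.1, 14.4 and 12.8 CPM in MDM. MDM lay above both microglial groups. The region was lower in MG than in MDM by a log2 change of -1.04 ± 0.24 (edgeR adjusted p = 0.000452), and -0.77 (edgeR adjusted p = 0.0532) without MG libraries 2 and 3.

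Between the starts, Mitf carried a region more open in MDM. The region chr6:97867140-97867512, 60.3 kb after start 1 and named in MDM only, had 1.36, 0 and 0.726 CPM in LL-MG, 7.97, 3.06 and 3.77 CPM in LL-MDM, 1.11, 0.515 and 1.22 CPM in MG and 12.6, 13.7 and 17.6 CPM in MDM. MDM lay above LL-MDM, and LL-MDM above both microglial groups, which overlapped. The region passed the filter on low counts only through the MDM and LL-MDM libraries, where it was higher. It was lower in MG than in MDM by a log2 change of -4.01 ± 0.37 (edgeR adjusted p = 7.81e-11), lower in LL-MG than in LL-MDM by -2.45 ± 0.59 (edgeR adjusted p = 0.00266) and lower in LL-MDM than in MDM by -1.87 ± 0.29 (edgeR adjusted p = 1.12e-05), in every fit without 1 library. The summed level of 8 dendritic cell genes was also highest in MDM, at 591.7 to 627 CPM in LL-MG, 522 to 556 CPM in LL-MDM, 524 to 596 CPM in MG and 725 to 786 CPM in MDM. H2-Aa, an antigen presentation gene of dendritic cells and macrophages, had 25.6 to 28.9 CPM in LL-MG, 44.1 to 56.6 CPM in LL-MDM, 20.3 to 29.9 CPM in MG and 196 to 206 CPM in MDM. As in the region at 60.3 kb, MDM lay above LL-MDM, and LL-MDM above both microglial groups, which overlapped. The monocyte-derived identity sum (Chil3 had no region) kept this order. It was 714 to 779 CPM for MDM, 656 to 673 for LL-MDM, 331 to 470 for MG and 371 to 403 for LL-MG. In the dendritic sum LL-MDM was not above the microglial groups. The endothelial sum (Cldn5 and Emcn had no region) and the oligodendrocyte sum were highest in MDM (488 to 525 and 369 to 388 CPM). The part of dendritic or other cells in the region at 60.3 kb, and in the Tfeb region 28.1 kb after its start 1, was not tested. The neighbouring Mitf region 59.8 kb after start 1 (chr6:97866618-97867063), named in all 4 groups, was also lower in MG than in MDM (-1.11 ± 0.23, edgeR adjusted p = 0.000149). A further pair of Mitf regions showed this direction in MG against MDM. The region 11.5 kb after start 1 differed by -1.22 ± 0.28 (edgeR adjusted p = 0.000439; -0.72, adjusted p = 0.203, without MG libraries 2 and 3). The region 19.8 kb after it differed by -1.29 ± 0.31 (edgeR adjusted p = 0.000702; -1.25, adjusted p = 0.0602, without them). The region at 19.8 kb was also lower in LL-MG than in LL-MDM (-1.66 ± 0.38, edgeR adjusted p = 0.00156), a call lost without LL-MDM library 2 (-1.32). It passed the filter on low counts only through the MDM and LL-MDM libraries, where it was higher.

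The locus sum of Mitf therefore joined opposite differences. In MG against MDM, 14 of its 34 regions were higher by 25.8 CPM in all and 20 were lower by a sum of -49.3 CPM. The region with the most Mitf counts, 20.4% of them (chr6:97820340-97821069, 13.6 kb after start 1), had 74.2, 68.6 and 61.3 CPM in LL-MG, 57.6, 48.8 and 56.5 CPM in LL-MDM, 49.3, 32.6 and 41.7 CPM in MG and 45.4, 39.7 and 48.7 CPM in MDM. LL-MG lay above all other groups. LL-MG exceeded MG by 0.75 ± 0.15 (edgeR adjusted p = 0.00214), and by 0.46 without MG libraries 2 and 3 (edgeR adjusted p = 0.451). The difference between LL-MG and LL-MDM was 0.35 ± 0.15 (edgeR adjusted p = 0.0902). A region 41.4 kb after start 1 was higher in LL-MDM than in MDM (1.30 ± 0.49, edgeR adjusted p = 0.0432) and in LL-MG than in MG (1.58 ± 0.49, edgeR adjusted p = 0.0321), but lost these calls in 9 and 8 of 12 fits without 1 library, with differences of 0.99 to 1.41 and of 0.91 to 1.67. This region passed the filter on low counts only through the LL-MG libraries, where it was highest. A region 146 kb after start 1 was higher in MG than in MDM (1.00 ± 0.43, edgeR adjusted p = 0.0494) and lost the call in 10 of 12 such fits (0.46 to 1.15).

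A region of Mitf and a region of Tfeb were high in the MG libraries that stood apart. The Mitf region 81.0 kb after start 1 (chr6:97887905-97888200) had 1.81, 1.88 and 2.90 CPM in LL-MG, 1.77, 0.974 and 1.71 CPM in LL-MDM, 2.59, 14.1 and 7.56 CPM in MG and 1.17, 0.652 and 0.342 CPM in MDM. The Tfeb region 6.47 kb after its start 1 (chr17:47743395-47743625) had 5.88, 5.17 and 3.99 CPM in LL-MG, 2.66, 1.95 and 2.05 CPM in LL-MDM, 4.82, 15.8 and 9.76 CPM in MG and 2.70, 1.52 and 2.22 CPM in MDM. In both, MG library 2 was highest and MG library 3 next, the order of the mast cell and basophil sum (213 and 140 CPM). Among the MG libraries the neutrophil sum had this order (88.2 and 66.0 CPM, against 37.1 CPM in MG library 1, with Ly6g and Ngp without a region). So did the monocyte-derived identity sum (470 and 426, against 331 CPM) and the T and NK cell sum (152 and 120, against 105 CPM). The microglial, astrocyte, neuron, endothelial and B cell sums were instead lowest in MG library 2. The part of any of these cells in the 2 regions was not tested. MG exceeded MDM by 3.46 ± 0.43 at the Mitf region (edgeR adjusted p = 6.23e-07) and by 2.35 ± 0.30 at the Tfeb region (edgeR adjusted p = 1.09e-07). The Tfeb region passed the filter on low counts only through the LL-MG and MG libraries, where it was higher. Without MG libraries 2 and 3 the Mitf region failed the filter on low counts and the Tfeb region gave 1.196 (edgeR adjusted p = 0.0643). LL-MG against MG gave -1.97 ± 0.51 (edgeR adjusted p = 0.0169) at the Mitf region, lost without any LL-MG library (-2.15 to -1.79). It gave -1.12 ± 0.35 (edgeR adjusted p = 0.0334) at the Tfeb region, lost in 9 of 12 fits (-1.20 to -0.61) and 0.04 without MG libraries 2 and 3.

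At Tfe3 differences were called at the start 2 region and none at the start 1 region. Whether the differences at start 1 and start 2 were unlike was not tested, for Tfe3 or for Mitf. The start 1 region (chrX:7762408-7763076), with 56.5% of the Tfe3 counts, had 52.0, 44.7 and 44.6 CPM in LL-MG, 47.8, 51.7 and 58.6 CPM in LL-MDM, 52.6, 55.2 and 43.9 CPM in MG and 45.8, 48.2 and 54.5 CPM in MDM. All 4 groups overlapped and no comparison passed (edgeR adjusted p of 0.413 to 0.811 over the pairs). The start 2 region (chrX:7763800-7764296), 105 bp after start 2, had 30.3, 40.9 and 33.8 CPM in LL-MG, 27.5, 26.8 and 30.8 CPM in LL-MDM, 35.6, 25.4 and 22.7 CPM in MG and 15.4, 18.7 and 18.8 CPM in MDM. MDM lay below all other libraries. MG exceeded MDM by 0.64 ± 0.16 (edgeR adjusted p = 0.00116) and LL-MDM exceeded MDM by 0.69 ± 0.17 (edgeR adjusted p = 0.00177), in every fit without 1 library and without MG libraries 2 and 3 (1.02 and 0.68).

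The region 3.34 kb after Tfe3 start 1 (chrX:7765913-7766098) was lower still in MDM. It had 13.1, 16.5 and 10.9 CPM in LL-MG, 10.6, 8.35 and 7.53 CPM in LL-MDM, 14.8, 15.1 and 13.7 CPM in MG and 3.65, 3.42 and 5.13 CPM in MDM. MDM lay below LL-MDM, and LL-MDM below both microglial groups, which overlapped. MG exceeded MDM by 1.89 ± 0.22 (edgeR adjusted p = 9.64e-09) and LL-MDM exceeded MDM by 1.11 ± 0.24 (edgeR adjusted p = 0.000709). LL-MG against MG gave -0.12 ± 0.23 (edgeR adjusted p = 0.777). The lipid-load difference was lower in microglia than in MDM (interaction -1.24 ± 0.33, edgeR adjusted p = 0.0151), a call lost without LL-MG library 1 or 3, LL-MDM library 2 or MDM library 1 or 2 (-1.23 to -1.005).

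**Figure D3:**
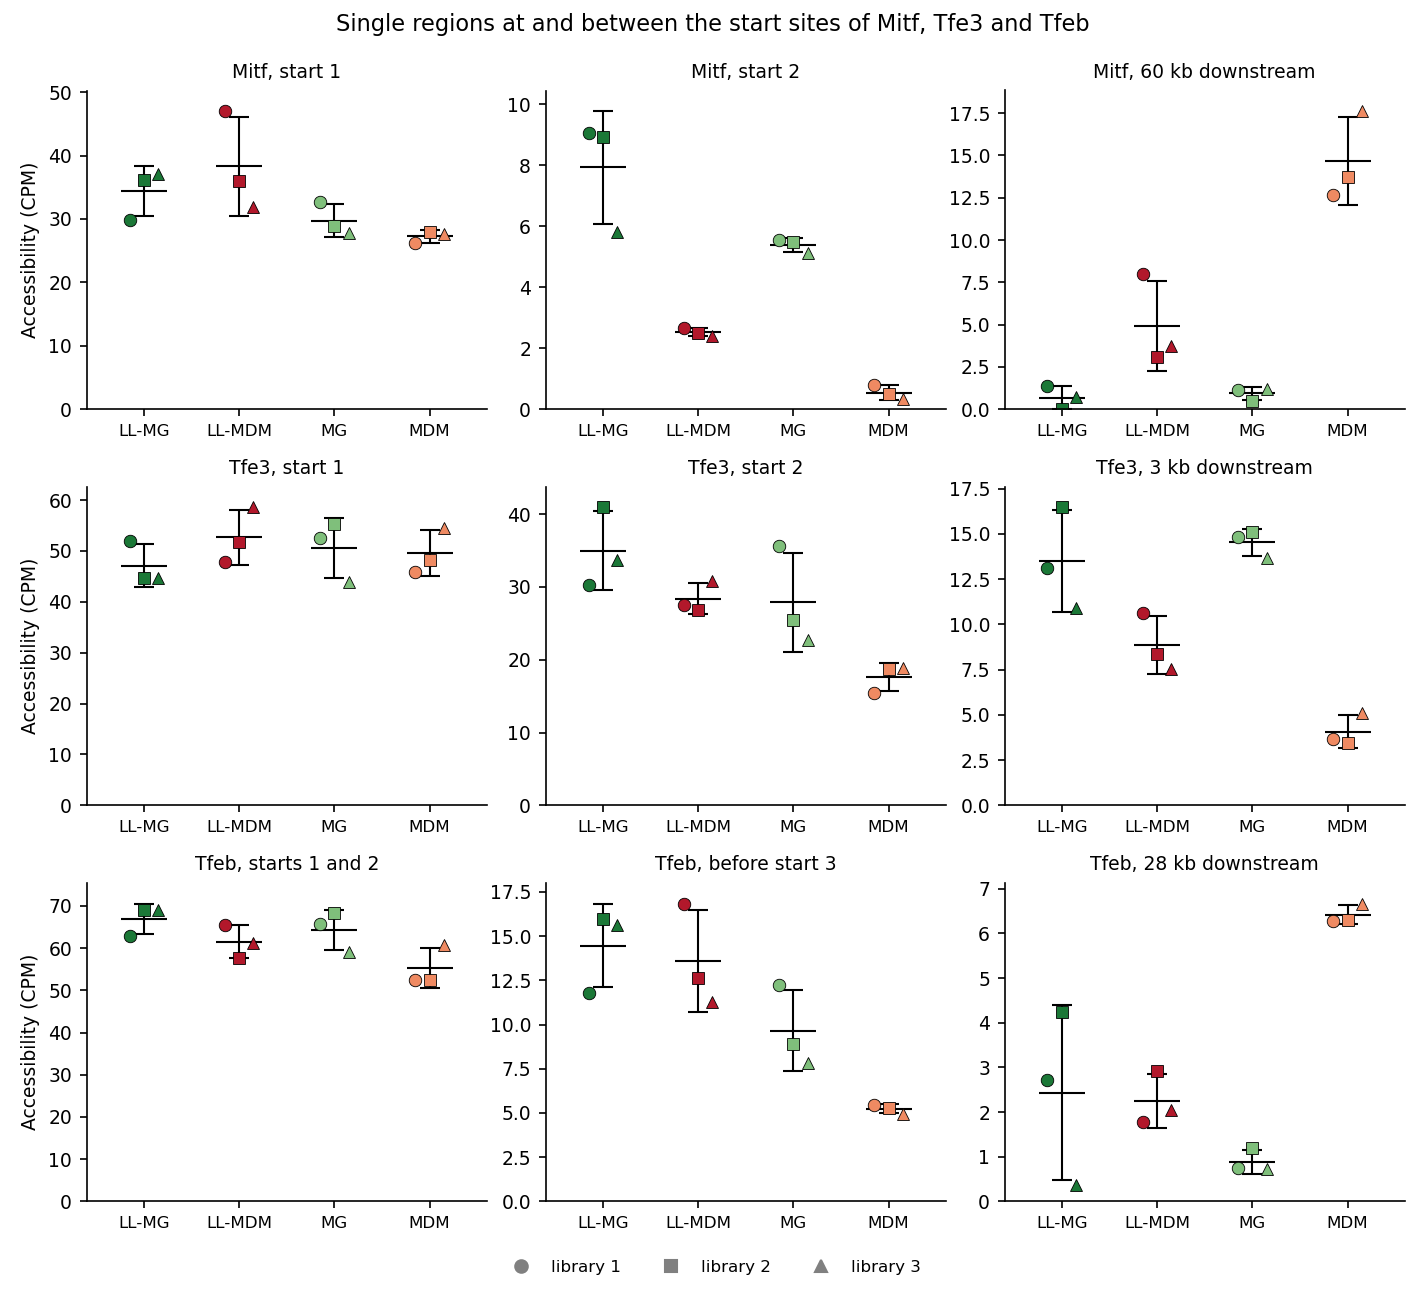
Accessibility in CPM (vertical axis) of 9 single regions of Mitf, Tfe3 and Tfeb in each library of LL-MG, LL-MDM, MG and MDM, with bars for the mean and SD of 3 libraries and distances in the titles run from start 1 unless another start is named. At Tfe3 start 1 the groups overlap (43.9 to 58.6 CPM), while at Mitf start 2 MDM lies below 1 CPM and MG above 5 CPM.

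The differences at these starts were read against other genes' starts. Of the 10518 tested regions that overlap a RefSeq start window, 33.1% were higher and 6.87% lower in MG than in MDM (median log2 difference 0.21), against 25.8% and 27.7% of the regions elsewhere. In LL-MDM against MDM 11.8% of start regions were higher and 5.36% lower. A start region higher in MG than in MDM is thus common, and the start 2 regions of Mitf and Tfe3 share their direction with it.

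At the first Tfeb starts no comparison passed, while regions further downstream were called. The region over starts 1 and 2 (chr17:47736907-47737957), which Tfeb shares with Pgc, had 62.9, 69.1 and 69.0 CPM in LL-MG, 65.6, 57.7 and 61.3 CPM in LL-MDM, 65.6, 68.3 and 59.0 CPM in MG and 52.4, 52.5 and 60.7 CPM in MDM. LL-MG lay above MDM throughout, the highest MDM library overlapped LL-MDM and MG, and no comparison passed (MG against MDM 0.23 ± 0.11, edgeR adjusted p = 0.0945). The regions 132 and 373 bp after start 2 were not called either, with MDM lowest by mean. The first had 5.72 CPM in LL-MG, 5.22 in LL-MDM, 5.15 in MG and 3.88 in MDM, and the second 16.7, 14.7, 14.5 and 11.9 CPM in that order. Start 3 had no region over its window. The nearest region (chr17:47784498-47784767), 1112 bp before start 3, had 11.8, 16.0 and 15.6 CPM in LL-MG, 16.8, 12.7 and 11.3 CPM in LL-MDM, 12.2, 8.92 and 7.80 CPM in MG and 5.48, 5.27 and 4.96 CPM in MDM. MDM lay below all other libraries. LL-MDM exceeded MDM by 1.30 ± 0.22 (edgeR adjusted p = 3.83e-05) and MG exceeded MDM by 0.84 ± 0.22 (edgeR adjusted p = 0.00205), in every fit without 1 library.

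An adjacent pair of Tfeb regions 22.9 and 23.1 kb after start 1 was lowest in MDM and higher in the microglial groups than in their MDM counterparts. The upstream one (chr17:47759780-47760007) had 25.8, 28.7 and 27.9 CPM in LL-MG, 21.3, 16.4 and 11.3 CPM in LL-MDM, 25.2, 20.9 and 22.7 CPM in MG and 11.0, 8.53 and 7.35 CPM in MDM. LL-MG lay above all others and MDM below all others. The downstream one (chr17:47760051-47760292) had 22.6, 24.9 and 25.8 CPM in LL-MG, 9.75, 15.6 and 10.6 CPM in LL-MDM, 24.1, 13.9 and 18.5 CPM in MG and 7.67, 7.66 and 4.79 CPM in MDM. There LL-MG overlapped MG, MG overlapped LL-MDM, and MDM lay below all others. LL-MG against MG passed at neither region (0.27 ± 0.19 and 0.42 ± 0.22, edgeR adjusted p = 0.372 and 0.208). For the upstream and the downstream region, MG exceeded MDM by 1.31 ± 0.18 and 1.39 ± 0.21 (edgeR adjusted p = 3.63e-07 and 1.36e-06). LL-MG exceeded LL-MDM by 0.82 ± 0.21 and 0.92 ± 0.23 (edgeR adjusted p = 0.00422 and 0.00402), the upstream one lost without LL-MDM library 3 (0.64). LL-MDM exceeded MDM by 0.77 ± 0.20 and 0.89 ± 0.23 (edgeR adjusted p = 0.00363 and 0.00280), both lost without LL-MDM library 2 (0.69 and 0.56).

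Tfeb also held a region more open in MDM. The region 28.1 kb after start 1 (chr17:47765080-47765220), named in MDM only, had 2.71, 4.23 and 0.363 CPM in LL-MG, 1.77, 2.92 and 2.05 CPM in LL-MDM, 0.741, 1.201 and 0.732 CPM in MG and 6.28, 6.30 and 6.67 CPM in MDM. MDM lay above all other libraries, and LL-MG spread over the range of LL-MDM and MG. The region passed the filter on low counts only through the MDM libraries, where it was high. It was lower in MG than in MDM by a log2 change of -2.73 ± 0.40 (edgeR adjusted p = 6.83e-07) and lower in LL-MDM than in MDM by -1.33 ± 0.34 (edgeR adjusted p = 0.00304). The interaction was 2.58 ± 0.68 (edgeR adjusted p = 0.0133) and was lost without LL-MG library 1 or 2 (1.96 to 2.51). Of the 19 tested Tfeb regions, 7 were higher and 1 lower in MG than in MDM (36.8% and 5.26%, beside 26.8% and 24.9% of all regions). Of the higher ones, those 6.11, 29.8 and 30.2 kb after start 1 differed by 0.60, 0.57 and 0.77 (edgeR adjusted p = 0.0410, 0.00849 and 0.000873), and by -0.14, 0.29 and 0.14 without MG libraries 2 and 3 (edgeR adjusted p = 0.831, 0.366 and 0.704). At 6.11 kb the MG libraries had 4.82, 9.26 and 9.27 CPM, against 5.70, 5.00 and 5.30 CPM in MDM, with MG library 1 below every MDM library. At 29.8 kb they had 19.3, 25.6 and 24.6 CPM, against 16.9, 14.3 and 16.2 CPM in MDM. At 30.2 kb they had 16.3, 31.0 and 26.8 CPM, against 14.8, 13.4 and 17.1 CPM in MDM, with MG library 1 inside the MDM range. The call at 6.11 kb was also lost in 10 of 12 fits without 1 library (0.46 to 0.59), and that at 29.8 kb without MDM library 2 (0.43). The region 20.3 kb after start 1 was higher in LL-MDM than in MDM (0.44 ± 0.16, edgeR adjusted p = 0.0385) and in LL-MG than in MG (0.57 ± 0.17, edgeR adjusted p = 0.0256). These were lost in 9 and 4 of 12 fits without 1 library, at 0.33 to 0.52 and 0.44 to 0.63, and the second fell to 0.10 without MG libraries 2 and 3. The region 56.5 kb after start 1 was higher in LL-MG than in LL-MDM (0.58 ± 0.21, edgeR adjusted p = 0.0483), lost in 10 of 12 fits (0.55 to 0.67).

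Tfec rested on 3 tested regions, none at its start. The region at the start (chr6:16898291-16898515) had 3.17, 2.35 and 2.18 CPM in LL-MG, 0, 2.64 and 3.08 CPM in LL-MDM, 2.59, 1.54 and 1.71 CPM in MG and 2.34, 1.79 and 2.22 CPM in MDM, and did not pass the filter. The region 6.501 kb into the gene (chr6:16891649-16892231) held 52.7% of the Tfec counts. It had 13.1, 12.2 and 16.3 CPM in LL-MG, 20.4, 16.6 and 20.9 CPM in LL-MDM, 12.6, 8.40 and 15.1 CPM in MG and 13.2, 11.3 and 13.8 CPM in MDM. LL-MDM lay above all other libraries. LL-MDM exceeded MDM by 0.56 ± 0.20 (edgeR adjusted p = 0.0308), lost without any 1 of the 6 LL-MDM and MDM libraries (0.45 to 0.70). The region 15.5 kb into the gene was also higher in LL-MDM than in MDM (1.17 ± 0.35, edgeR adjusted p = 0.0104), lost without LL-MDM library 2 or MDM library 1 or 2 (1.09 to 1.36). It passed the filter on low counts only with the LL-MDM libraries, its highest group, beside LL-MG library 1. The region at 14.7 kb was higher in MG than in MDM (0.68 ± 0.27, edgeR adjusted p = 0.0352), lost in 5 of 12 fits (0.45 to 0.68) and 0.33 without MG libraries 2 and 3.

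**Figure D4:**
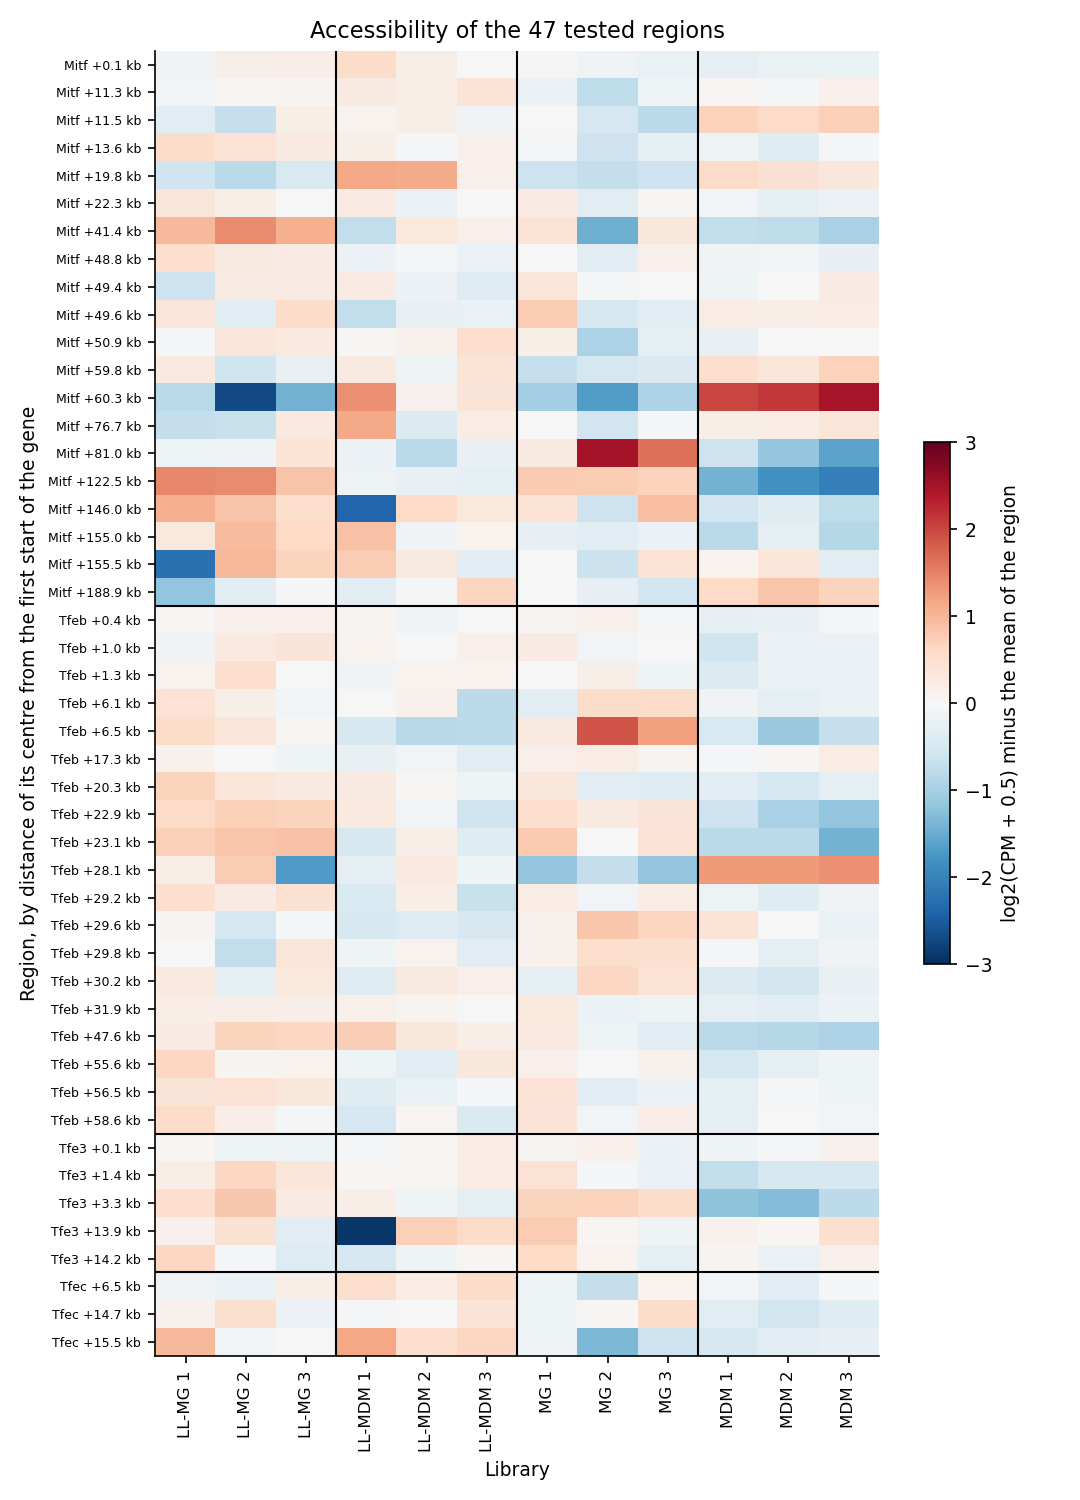
The 47 tested regions (rows, ordered by gene and by the distance of their centres from start 1) in the 12 libraries (columns), coloured by log2(CPM + 0.5) minus the region's mean, with the colour limit at 3. The MDM columns are highest at Mitf +60.3 kb and Tfeb +28.1 kb and lowest at Mitf +122.5 kb, and MG libraries 2 and 3 are highest at Mitf +81.0 kb and Tfeb +6.5 kb.

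Across the 12 libraries, log2 locus levels of Mitf and Tfec ran together (Pearson r = 0.76), as did those of Tfeb and Tfe3 (r = 0.77), and the other pairs had r of 0.25 to 0.38. Among 15551 other loci, those most like Mitf were Slc15a3 (r = 0.968), Slc27a3 (0.966) and Atox1 (0.955). Those most like Tfec were Sdcbp (0.969), Hsd17b12 (0.969) and Tomm40 (0.939). Among 15550 loci, Tfeb was most like Disc1 (0.985), Mfng (0.983) and Whrn (0.981). Tfe3 was most like Atp6v1f (0.941), a subunit of the proton pump that acidifies lysosomes, whose regions are all counted for Atp6v1fnb too, and Rnf103 (0.937). These r values over 12 libraries also carry whatever the libraries share, such as lineage and depth.

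Genes that regulate the MiT/TFE proteins, some by holding and some by releasing them, were described from a list of 26 loci. It covers mTORC1, the Rag GTPases, folliculin and calcineurin, and all were tested. In MG against MDM 5 were higher and 3 lower (19.2% and 11.5%, beside 19.8% and 21.2% of all loci, median 0.09). In LL-MG against LL-MDM 4 and 2 were called (15.4% and 7.69%, beside 12.0% and 8.31%, median -0.03), and in LL-MDM against MDM 3 and 2 (11.5% and 7.69%, beside 11.7% and 12.2%, median -0.02). In LL-MG against MG 4 and 3 were called (15.4% and 11.5%, beside 10.3% and 7.98%, median -0.07). The medians of all loci lay between -0.01 and 0.03, and most of these shares were near or below those of all loci. Without MG libraries 2 and 3, MG rested on 1 library and the calls over all loci changed in every comparison. List counts of that fit are therefore not set beside these shares, here and in the lists below. Every difference of this list called in LL-MG against MG was smaller in that fit, from Map4k3 (0.43 to 0.39) to Tsc2 (-0.70 to -0.12). Fnip2, which encodes a folliculin partner, had 402 ± 13.5 CPM in LL-MG, 327 ± 14.1 CPM in LL-MDM, 291 ± 25.8 CPM in MG and 198 ± 16.6 CPM in MDM (SD, n = 3 each). It was higher in MG than in MDM by 0.55 ± 0.08 (edgeR adjusted p = 1.44e-05) and in LL-MDM than in MDM by 0.73 ± 0.08 (edgeR adjusted p = 3.75e-06). LL-MG exceeded MG by 0.47 ± 0.08 (edgeR adjusted p = 0.00342; 0.37, adjusted p = 0.164, without MG libraries 2 and 3). Rragd, a Rag GTPase and itself a TFEB target, had 32.7 ± 3.04 CPM in LL-MG, 17.5 ± 3.07 CPM in LL-MDM, 22.7 ± 2.13 CPM in MG and 15.2 ± 2.03 CPM in MDM. It was higher in LL-MG than in LL-MDM by 0.94 ± 0.17 (edgeR adjusted p = 0.000488) and in MG than in MDM by 0.54 ± 0.15 (edgeR adjusted p = 0.00553).

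Rragb, another Rag GTPase, went the other way. It had 2.17 ± 1.09 CPM in LL-MG, 9.47 ± 2.31 CPM in LL-MDM, 6.82 ± 2.97 CPM in MG and 14.9 ± 3.02 CPM in MDM (SD, n = 3 each). It was lower in LL-MG than in LL-MDM by a log2 change of -2.01 ± 0.44 (edgeR adjusted p = 0.00240) and lower in MG than in MDM by -1.05 ± 0.26 (edgeR adjusted p = 0.00230; -1.79 without MG libraries 2 and 3). Ppp3ca, a catalytic subunit of calcineurin, was higher in MG than in MDM (0.61 ± 0.08, edgeR adjusted p = 4.08e-06). Map4k3, a kinase upstream of mTORC1, was higher in LL-MDM than in MDM (0.43 ± 0.09, edgeR adjusted p = 0.00162). Mtor itself was lower in MG than in MDM (-0.32 ± 0.08, edgeR adjusted p = 0.00171; -0.24, adjusted p = 0.0940, without MG libraries 2 and 3), with 94.2% of its counts shared with neighbours.

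Target genes of the family that encode lysosomal enzymes included cathepsins with higher accessibility in microglia. Of 28 hydrolase loci, all tested, 9 were higher and 4 lower in MG than in MDM (32.1% and 14.3%, beside 19.8% and 21.2% of all loci, median 0.10). In LL-MG against LL-MDM 6 were higher and 1 lower (21.4% and 3.57%, beside 12.0% and 8.31%, median 0.10). In LL-MDM against MDM 7 and 2 were called (25.0% and 7.14%, beside 11.7% and 12.2%, median 0.17), and in LL-MG against MG 6 and 4 (21.4% and 14.3%, beside 10.3% and 7.98%, median 0.24). In LL-MG against MG, Hexa, Ctsb, Lipa and Ctsz gave 0.47, 0.61, 0.35 and 0.41. Without MG libraries 2 and 3 they gave 0.215, 0.25, 0.04 and 0.07. The 4 lower there, Galc, Gaa, Glb1 and Sgsh, went from -0.57, -0.59, -0.52 and -0.53 to -0.25, -0.30, -0.07 and -0.03. Ctsd, which encodes cathepsin D, had 124 ± 11.7 CPM in LL-MG, 66.2 ± 6.75 CPM in LL-MDM, 101 ± 12.4 CPM in MG and 35.7 ± 2.19 CPM in MDM (SD, n = 3 each). MG exceeded MDM by 1.48 ± 0.10 (edgeR adjusted p = 1.73e-10), LL-MG exceeded LL-MDM by 0.88 ± 0.11 (edgeR adjusted p = 6.15e-06) and LL-MDM exceeded MDM by 0.90 ± 0.11 (edgeR adjusted p = 4.80e-06). Ctsl, for cathepsin L, differed in the same directions by 0.82 ± 0.11, 0.54 ± 0.13 and 0.52 ± 0.12 (edgeR adjusted p = 3.11e-06, 0.00372 and 0.00270). Ctsf was higher in MG than in MDM by 1.53 ± 0.21 (edgeR adjusted p = 5.43e-06). The 4 lower genes, Scpep1, the cathepsin genes Ctss and Ctsz, and Npc2, differed between MG and MDM by -0.59, -0.69, -0.45 and -0.24. Their edgeR adjusted p was 0.000282, 0.00270, 0.00700 and 0.0147. Without MG libraries 2 and 3 they gave -0.22, -0.20, -0.12 and -0.15.

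Of 23 genes of the lysosomal membrane and the V-ATPase, the proton pump, 22 had a region and were tested (Tmem55b had none). In MG against MDM 8 were higher and none lower (36.4% higher, beside 19.8% higher and 21.2% lower of all loci, median 0.12). Between LL-MG and LL-MDM 3 and 1 were called (13.6% and 4.55%, beside 12.0% and 8.31%). In LL-MDM against MDM 4 and 1 were called (18.2% and 4.55%, beside 11.7% and 12.2%). In LL-MG against MG 2 and none were called (9.09% higher, beside 10.3%). These were Cd63 and Clcn7, at 0.32 and 0.60, and at 0.34 and 0.10 without MG libraries 2 and 3. Cd63, a tetraspanin of late endosomes, was higher in MG than in MDM by 0.82 ± 0.08 (edgeR adjusted p = 5.04e-08) and in LL-MDM than in MDM by 0.82 ± 0.08 (edgeR adjusted p = 7.40e-07), with 86.7% of its counts shared with neighbours. Atp6v0a1, a V-ATPase subunit, was the gene lower in LL-MDM than in MDM (-0.37, edgeR adjusted p = 0.00338). Of 17 autophagy genes 16 were tested (Vps11 had no region), with 2 higher and 3 lower in MG than in MDM (12.5% and 18.8%, beside 19.8% and 21.2% of all loci) and at most 2 in 1 direction elsewhere. Ppargc1a, a coactivator that TFEB induces, was lower in MG than in MDM (-1.25 ± 0.13, edgeR adjusted p = 4.10e-07), in LL-MG than in LL-MDM (-0.71 ± 0.17, edgeR adjusted p = 0.00618) and in LL-MDM than in MDM (-0.89 ± 0.13, edgeR adjusted p = 0.000142). Uvrag, which acts in autophagosome maturation, was lower in MG than in MDM (-0.64 ± 0.08, edgeR adjusted p = 2.23e-06).

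Targets from other cell types of the family gave a mixed account. Of 11 osteoclast genes 9 had a region and were tested (Acp5 and Calcr had none), with 2 higher and 4 lower in MG than in MDM (22.2% and 44.4%, beside 19.8% and 21.2% of all loci). None and 1 were called in LL-MG against LL-MDM (11.1% lower, beside 8.31%), 2 and 2 in LL-MDM against MDM (22.2% each, beside 11.7% and 12.2%) and 3 and none in LL-MG against MG (33.3% higher, beside 10.3%). The 3 higher in LL-MG than in MG, Ctsk, Clcn7 and Tnfrsf11a, went from 0.59, 0.60 and 0.55 to 0.30, 0.10 and 0.06 without MG libraries 2 and 3. The 4 lower in MG than in MDM, Dcstamp, Mmp9, Gpnmb and Ctsk, went from -1.92, -0.56, -0.41 and -0.40 to -1.95, -0.45, -0.21 and -0.12. Gpnmb, a glycoprotein of lysosomes that MITF and TFE3 induce, had 28.1, 25.6 and 22.8 CPM in LL-MG, 66.4, 52.1 and 55.6 CPM in LL-MDM, 25.2, 20.6 and 20.4 CPM in MG and 31.2, 29.8 and 24.7 CPM in MDM. All LL-MDM libraries lay above all others. LL-MDM exceeded MDM by 0.97 ± 0.12 (edgeR adjusted p = 1.28e-05), and LL-MG was lower than LL-MDM by a log2 change of -1.15 ± 0.15 (edgeR adjusted p = 9.88e-06). The lipid-load difference was lower in microglia than in MDM (interaction -0.74 ± 0.20, edgeR adjusted p = 0.0241), lost without LL-MG library 3 or LL-MDM library 1 or 3 (-0.77 to -0.67). Its highest group, LL-MDM, was also that of Tfec. Dcstamp, which osteoclasts need for cell fusion, was lower in MG than in MDM (-1.92 ± 0.27, edgeR adjusted p = 6.35e-06) and in LL-MDM than in MDM (-1.46 ± 0.28, edgeR adjusted p = 0.000647). Of 13 melanocyte genes only 7 had a region, and Tyr, Tyrp1, Slc45a2, Oca2, Gpr143 and Pax3 had none. Of the 7, none was higher and 3 lower in MG than in MDM (42.9% lower, beside 21.2% of all loci), and none and 3 in LL-MDM against MDM (42.9% lower, beside 12.2%). The 3 lower in MG than in MDM, Mlana, Mc1r and Dct, gave -1.28, -0.66 and -1.61, and -0.89, -0.77 and -1.15 without MG libraries 2 and 3.

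**Figure D5:**
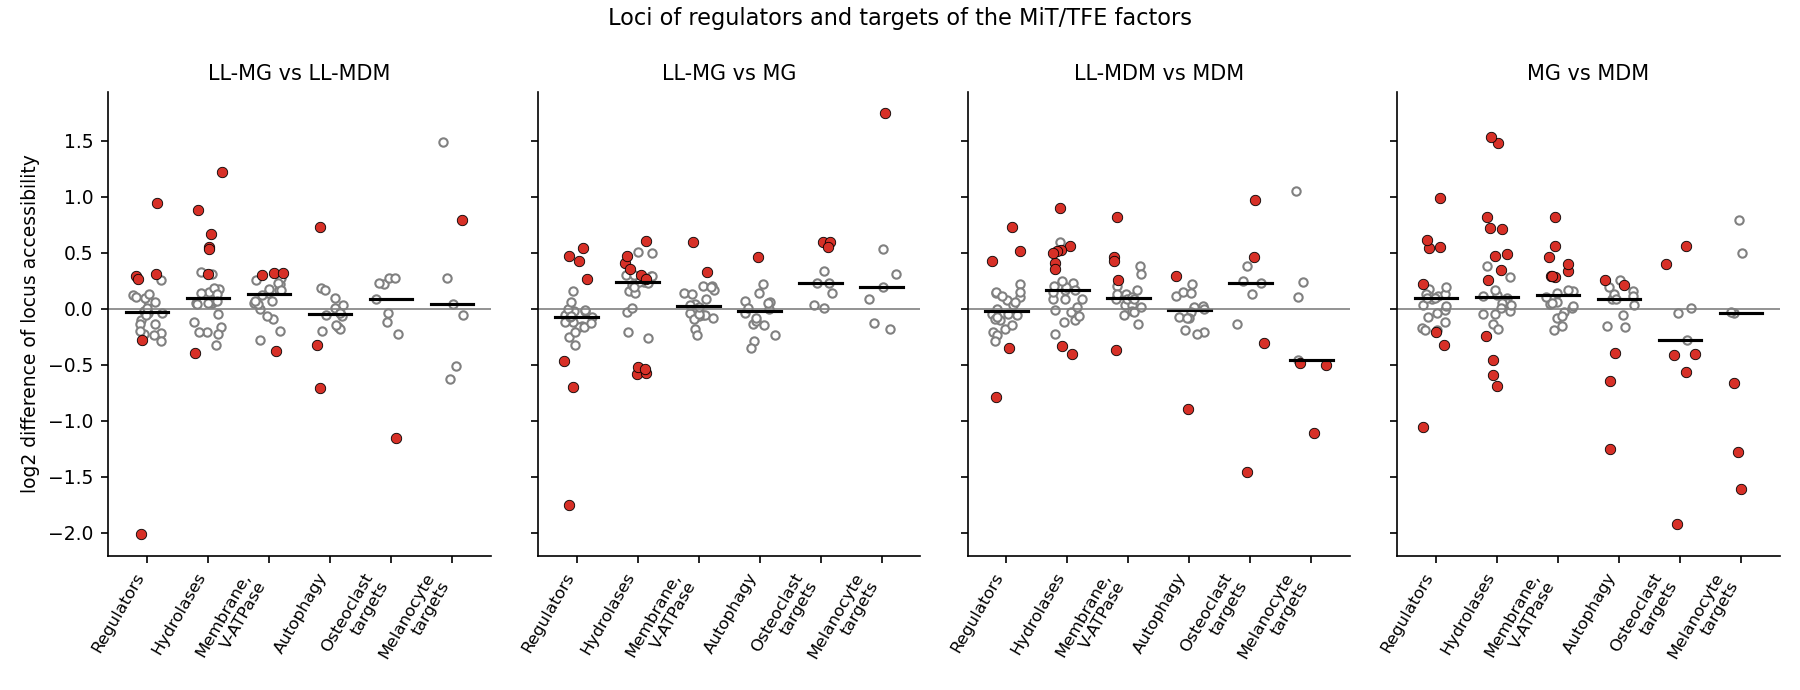
Log2 differences of locus accessibility (vertical axis) of the regulators and target lists in each comparison, with a point for each gene, filled where edgeR's adjusted p is under 0.05, and a bar for the list's median. In MG against MDM 9 of 28 hydrolases and 8 of 22 membrane and V-ATPase genes are higher (32.1% and 36.4%, beside 19.8% of all loci), and the medians of all lists but the osteoclast and melanocyte ones lie within 0.25 of 0 in every panel.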

How the data were processed

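The authors deposited a table of raw read counts per region for 12 ATAC-seq libraries, per the file headers in mm10 coordinates. Nuclei were tagmented with Tn5 and amplified, per the labels' protocols. BWA 0.7.17-r1188, SAMtools 1.10, Picard 2.12.0 and deepTools 3.5.1 are named in the submitters' processing notes; the peak caller, the handling of duplicates and any Tn5 shift were not given in the sources used here. Groups follow the column names, which match sample descriptions, and 0 columns were left unmapped. Counts of regions over a protein-coding gene's RefSeq span or 5 kb either side were summed to a locus, and a region may count for several genes. Regions and loci were filtered (filterByExpr), scaled separately by TMM and tested in 1 model over the 4 groups with edgeR 4.0.16 in R 4.3.3 (quasi-likelihood, robust), with Benjamini-Hochberg adjustment over all features and a threshold of 0.05. A locus CPM is therefore not the sum of its regions' CPM. The interaction is LL-MG minus MG, minus LL-MDM minus MDM. Alternatives used DESeq2 1.42.0, limma 3.58.1, other scalings and filters, thinned counts, groups by title, libraries left out and, added after seeing the data, replicate blocks. Named regions were the most counted and the start regions of each gene and up to 3 called regions per direction and comparison, by p. Named list genes were up to 4 per direction, and for likeness the top 3 loci by Pearson r of log2 CPM with a prior count of 2. Other items named were chosen after their values were seen. The members and lists were chosen with earlier results of these data known. Counting error limits the low regions, and the locus fit was checked on simulated counts with known changes.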

Additional observations from a re-analysis of the deposited data

Results flagged for a closer look

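For 3 of the 47 tested regions the edgeR interaction test called the difference with lipid load unlike in microglia and MDM. Of these, 1 was higher and 2 were lower (2.13% and 4.26%, beside 4.56% and 6.33% of all regions tested), so such calls were no more common in the family than elsewhere. At the Mitf region 122 kb after start 1, near start 2, the difference of LL-MG from MG was below that of LL-MDM from MDM by a log2 value of -1.53 (edgeR adjusted p = 0.0471). The call was lost in 10 of 12 fits that left out 1 library each (-1.60 to -1.25), and without MG libraries 2 and 3 (-1.58). At the Tfe3 region 3.34 kb after start 1 the value was -1.24 (edgeR adjusted p = 0.0151), lost without LL-MG library 1 or 3, LL-MDM library 2 or MDM library 1 or 2. At the Tfeb region 28.1 kb after start 1 it was 2.58 (edgeR adjusted p = 0.0133), lost without LL-MG library 1 or 2. The Tfeb region passed the filter on low counts only through the MDM libraries, where it was high. The Mitf region passed it only through the LL-MG and MG libraries, where it was high. Sall1, the microglial marker, was higher in every LL-MDM library (5.94 to 11.5 CPM) than in every MDM library (0.471 to 1.02 CPM), and its part in these values was not tested.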

How the results depend on the processing

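The columns number the libraries in 3 sets of 4, each with 1 library of every group, but no label says what a set shares. Of 18 pairs of libraries of 1 set, 1 had deviations from the group means with r over 0.1 across loci (-0.141 to 0.108). Of 36 pairs from different sets 5 did (-0.159 to 0.139). Across regions, r was -0.0618 to 0.101 within sets (mean 0.0228) and -0.0963 to 0.0699 between sets (mean -0.0115). With r this small the numbers were not taken to pair the libraries in the main fit. A fit with these sets as a replicate block, added after seeing the data, called 6184 loci between MG and MDM, 3014 between LL-MG and LL-MDM, 3574 between LL-MDM and MDM, 2587 between LL-MG and MG and 1185 for the interaction. With the block, 19 of 20 member locus results and 38 of 43 region results stayed on their side of the threshold; Tfe3 in LL-MDM against MDM did not (0.31, edgeR adjusted p = 0.0640). Of 20 member locus results, 20 kept direction and side of the threshold under RLE scaling, limma-voom and no low-count filter, and of 43 region results 40, 38 and 42 did. The causes of the changes below were not tested. Groups by title gave 0 called loci and regions between MG and MDM, between LL-MG and LL-MDM and for the interaction (unadjusted p under 0.05 at 61, 106 and 43 loci and at 183, 857 and 429 regions), and 2001 loci and 13770 regions in LL-MDM against MDM and 1144 loci in LL-MG against MG. By title, Mitf gave 0.0568 in MG against MDM, -0.0274 between LL-MG and LL-MDM, -0.034 in LL-MDM against MDM, -0.12 in LL-MG against MG and -0.0842 for the interaction. Tfeb gave -0.0275 between MG and MDM, 0.007 in LL-MG against LL-MDM and 0.33 in LL-MG against MG, Tfec 0.16 in MG against MDM, -0.0698 in LL-MDM against MDM and -0.33 in LL-MG against MG, and Tfe3 -0.0826 in LL-MG against LL-MDM and 0.25 in LL-MDM against MDM. Regions reversed by title were, in MG against MDM, Mitf at 146 kb (-0.17) and 189 kb (0.11) and Tfeb at 6.47 kb (-0.33) and 23.1 kb (-0.0406). In LL-MG against LL-MDM they were Mitf at 19.8 kb (0.0924) and Tfeb at 22.9 kb (-0.0388), 23.1 kb (-0.13) and 56.5 kb (-0.0924). In LL-MG against MG they were Mitf at 81.0 kb (2.68) and Tfeb at 6.47 kb (2.27), and in LL-MDM against MDM Tfec at 6.501 kb (-0.12) and 15.5 kb (-0.33). Groups by title with the mouse number of the title as a replicate block, also added, gave 0 called loci and regions between MG and MDM, between LL-MG and LL-MDM and for the interaction (unadjusted p under 0.05 at 113, 132 and 69 loci and at 335, 966 and 615 regions) and 1483 loci in LL-MG against MG. Mitf then gave 0.0571 in MG against MDM, -0.0445 in LL-MG against LL-MDM, -0.0402 in LL-MDM against MDM, -0.1417 in LL-MG against MG and -0.1015 for the interaction. Tfeb gave -0.0233 in MG against MDM, 0.0008 between LL-MG and LL-MDM and 0.3261 in LL-MG against MG, Tfec 0.1493 in MG against MDM, -0.0691 in LL-MDM against MDM and -0.3382 in LL-MG against MG, and Tfe3 -0.0794 in LL-MG against LL-MDM and 0.2586 in LL-MDM against MDM. Regions reversed with that block were Mitf at 59.8 kb (0.002) and 189 kb (0.0413) and Tfeb at 6.47 kb (-0.3833) in MG against MDM, and Mitf at 19.8 kb (0.0995) and Tfeb at 22.9 kb (-0.0439), 23.1 kb (-0.1628) and 56.5 kb (-0.0978) in LL-MG against LL-MDM. They were Mitf at 81.0 kb (2.7643) and Tfeb at 6.47 kb (2.2692) in LL-MG against MG, Tfec at 6.501 kb (-0.1183) and 15.5 kb (-0.3637) in LL-MDM against MDM, and Mitf at 122 kb (0.0586) and Tfeb at 28.1 kb (-0.0234) for the interaction. Thinned to the smallest library, 3497 loci and 11308 regions were called in MG against MDM, 5717 regions in LL-MG against LL-MDM, 1603 loci and 5243 regions in LL-MDM against MDM, 1231 loci and 2634 regions in LL-MG against MG and 555 loci and 1484 regions for the interaction. Tfeb then gave 0.24 in LL-MG against LL-MDM, 0.29 in LL-MDM against MDM, 0.18 in LL-MG against MG and -0.12 for the interaction, Tfec 0.48 in LL-MDM against MDM and 0.056 for the interaction, and Tfe3 0.28 in LL-MDM against MDM. Without MG libraries 2 and 3, 16 loci and 42 regions were called in LL-MG against MG, 5687 loci in LL-MDM against MDM and 4844 regions for the interaction. Mitf then gave -0.0486 in MG against MDM and 0.23 in LL-MG against MG, Tfeb 0.20 in LL-MDM against MDM, 0.0774 in LL-MG against MG and -0.13 for the interaction, Tfec 0.0521 in MG against MDM, and Tfe3 0.52 in MG against MDM and -0.10 in LL-MG against MG; the Tfeb region at 6.47 kb gave 0.035 in LL-MG against MG. DESeq2 and limma-voom called 6295 and 6158 regions in LL-MG against MG. Tfeb in LL-MDM against MDM passed with total counts (0.22) and DESeq2 (0.21), and Tfe3 there did not with DESeq2 (0.31). Tfeb in LL-MG against MG missed the threshold with loess offsets (0.15), the gene span only (0.22) and unshared regions (0.19), where its interaction was -0.0088, -0.0033 and -0.0259, and Tfe3 in MG against MDM passed in the last pair (0.26 and 0.27). Leaving out 1 library at a time, called loci ran between 5103 and 7502 (MG against MDM), 2221 and 4208 (LL-MG against LL-MDM), 2146 and 5190 (LL-MDM against MDM), 999 and 5915 (LL-MG against MG) and 713 and 3462 (interaction). Called regions ran between 33482 and 49708, 10384 and 21994, 11846 and 31113, 3029 and 22310, and 3831 and 17816 in the same order. Mitf ran between -0.40 and -0.15 in MG against MDM and 0.26 and 0.51 for the interaction. Tfeb ran between 0.27 and 0.39 in LL-MG against LL-MDM, 0.15 and 0.27 in LL-MDM against MDM, 0.20 and 0.34 in LL-MG against MG and -0.0182 and 0.13 for the interaction. Tfec ran between -0.29 and 0.11 in MG against MDM, 0.53 and 0.65 in LL-MDM against MDM, 0.20 and 0.59 in LL-MG against MG and -0.39 and 0.0057 for the interaction. Tfe3 ran between 0.11 and 0.32 in MG against MDM, 0.25 and 0.36 in LL-MDM against MDM, 0.10 and 0.31 in LL-MG against MG and -0.21 and 0.0011 for the interaction. Regions with under 1 CPM in a group rest on a few counts per library.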
